A study of Danio rerio with 5 samples.

Results

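Chromatin accessibility on the unplaced scaffolds of the zebrafish genome was described in larvae, in uhrf1 mutants and in their siblings, from ATAC-seq peaks. The regions described are all peaks on sequences whose names begin with KN, 485 of the 5366 peaks of the series (9.04%). Peaks of different libraries that shared at least 1 bp were merged, which gave 110 scaffold regions of 1326 regions in all (8.30%), on 40 scaffolds. The members were chosen by sequence name alone, not by a measured value.

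All larvae were of the ABNYU strain and 120 h post fertilization. The 3 control libraries (controls 1, 2 and 3) came from siblings of normal appearance, whose uhrf1 genotype the labels do not give, and the 2 mutant libraries (mutants 1 and 3) from larvae labelled uhrf1 mutant, with the hi272 allele. The labels name 10 embryos in one place and 3 larvae per genotype, pooled, in another, and 50000 live cells per library. They also mention livers, and which of these sources holds for these libraries is not clear. Nothing states that libraries came from separate pools, so p-values measure no more than how these libraries vary, which may be technical variation. A whole larva or an organ mixes cell types, and a change in the share of a cell type cannot be told apart from a change within cells. Whether the mutants carry the lesion was not checked at the uhrf1 locus.

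ATAC-seq uses the Tn5 transposase to insert sequencing adapters into DNA that is not protected by nucleosomes, and a peak is a stretch with more insertions than the local background. UHRF1 binds hemimethylated DNA behind the replication fork and brings in the maintenance DNA methyltransferase, so that methylation patterns are passed on when cells divide. The hi272 allele is an insertion in the zebrafish gene, and uhrf1 mutants are known for loss of DNA methylation and for activation of transposable elements. Unplaced scaffolds are assembled pieces that could not be assigned to a chromosome. Repeats and near-identical copies are common reasons for this, and reads from such copies can be placed in only some of their locations. How the reads at these regions were placed is not given in any source used here, and its part in the values was not tested. Positions are given on the GRCz10 scaffolds and count from 1. No genome or annotation of that build was used here, so regions are named by scaffold and position, without genes and without their sequences.

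The libraries numbered 1 stood apart in both genotypes, with fewer and wider peaks. Their lists also held no short peaks: the shortest peak measured 139 bp (control 1) and 162 bp (mutant 1). In control 2, control 3 and mutant 3 it measured 107, 97 and 94 bp. Read depth is unknown, so counting error has no interval here. With 3 libraries against 2, the smallest exact permutation p (two-sided) is 0.2, so no comparison of the genotypes can reach 0.05.

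Scaffolds took a larger share of the accessible length than of the peaks. In the full lists the genotypes overlapped in both shares. Among the peaks of lowest q the mutants had the smaller share of length, which also depends on the chromosome peaks kept. Controls 1, 2 and 3 had 82, 106 and 116 scaffold peaks and mutants 1 and 3 had 79 and 102. The ranges overlapped, with 101 ± 17.5 peaks per control (SD, n = 3), 90.5 ± 16.3 per mutant (SD, n = 2) and an exact permutation p of 0.4. The difference of -10.8 peaks turned to 0.667 without mutant 1. These were 10.2%, 8.62% and 8.44% of all peaks in the controls and 10.3% and 8.56% in the mutants, where in each genotype the library numbered 1 was highest. The exact permutation p for this share was 0.6, and its difference turned from 0.358 to -0.516 percentage points without mutant 1. Scaffold peaks covered 85.9, 112 and 97.1 kb in the controls and 101 and 93.5 kb in the mutants. Both mutants lay inside the range of the controls (98.4 ± 13.2 kb, SD, n = 3, against 97.0 ± 4.93 kb, SD, n = 2; exact permutation p = 1). Without control 2 the difference in covered length turned from -1.37 to 5.56 kb, and without mutant 3 to 2.11 kb. As a share of each library's covered length outside the mitochondrial genome, the scaffolds held 11.9%, 13.1% and 12.1% in the controls and 12.1% and 12.2% in the mutants. Apart from control 2, the libraries lay within a narrow span of this share. The difference was -0.22 percentage points with an exact permutation p of 1, and 0.138 without control 2. When q was limited to 1e-05, the share was 13.8%, 14.4% and 13.5% in the controls and 12.4% and 12.6% in the mutants. Both mutants were then below all controls, with a difference of -1.42 percentage points and an exact permutation p of 0.2, the smallest possible here. Covered length on scaffolds then differed by -3.05 kb (exact permutation p = 0.8). In the full lists, the median −log10 q (confidence) of chromosome peaks was 10.1, 9.81 and 10.4 in the controls. In the mutants it was 12.6 and 15.7, above all controls, while the medians of scaffold peaks overlapped. The part of the chromosome peaks in the lower share was not tested. In lists of equal length the difference in this share was -0.906 percentage points, and the genotypes overlapped.

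Between 25 and 38 of the scaffolds carried a peak in a given library. The numbers were 25, 33 and 38 in the controls and 26 and 28 in the mutants, and 23 scaffolds carried peaks in all 5 libraries. Each of these 23 had at least 1 region common to all libraries, meaning a merged region with a peak in every library. The remaining 17 scaffolds had no common region. They held 21 short regions, and the highest mean covered length among them was 0.346 kb, on KN150025.1.

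A few scaffolds held most of the accessible length. The 2 with the most, KN149693.1 and KN149692.1, together held from 34.0% of the scaffold length in mutant 3 to 36.3% in control 1. The first 10 held from 77.1% in control 3 to 82.4% in mutant 3. On KN149693.1, the controls had 19.4, 22.2 and 18.5 kb covered by peaks and the mutants 21.8 and 19.3 kb. The genotypes overlapped on this scaffold. Its 14 merged regions lay between 266 and 39424 and made up 67.6% of that span, and 13 of them were common to all libraries. The only exception was a stretch of 165 bp in control 2 alone. KN149692.1 had 18 regions between 162 and 36886, of which 12 were common, and these regions made up 55.2% of the span.

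**Figure D1:**
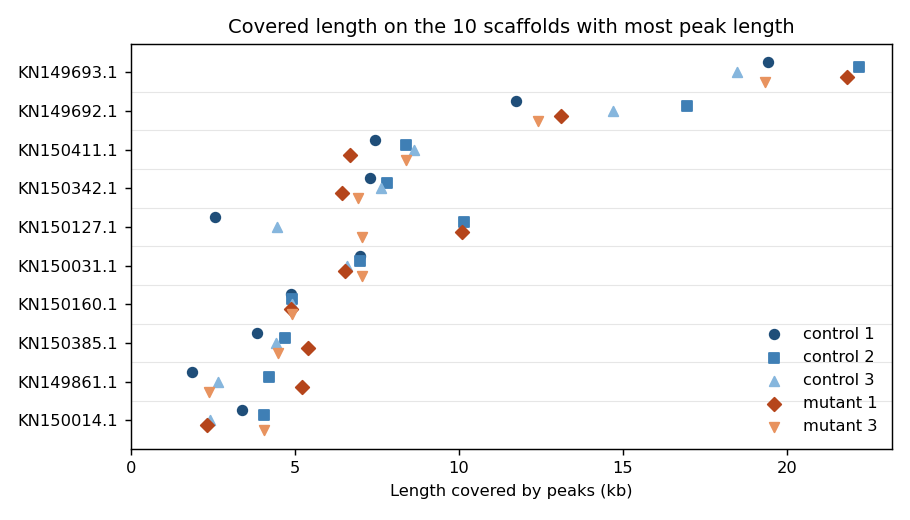
Length covered by peaks (kb) on the 10 scaffolds with the highest mean covered length, with 1 point per library (blue, controls; orange and red, mutants). KN149693.1 lies between 18.5 and 22.2 kb, and on KN150127.1 the controls alone span 2.57 to 10.2 kb.

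Broad, closely spaced peaks followed each other along KN149693.1 and KN149692.1. The widest merged regions lay on other scaffolds. On KN150342.1 the regions made up 16.7% of a span of 52.9 kb. That span was stretched by a distant region of 267 bp at 65890 to 66156, and the regions between 18714 and 28855 lay close together. The widest merged scaffold region, on KN150385.1 at 31631 to 37019, measured 5389 bp. In mutant 1 a single peak covered 5387 bp of it, whereas the other libraries each had 3 peaks, which covered 3699, 4171 and 4307 bp in controls 1, 2 and 3 and 4350 bp in mutant 3. Next in width were KN150342.1 at 18714 to 23791 (5078 bp), KN150411.1 at 129 to 4434 (4306 bp), KN150031.1 at 196 to 4498 (4303 bp) and KN150014.1 at 58 to 4242 (4185 bp). These 5 had moderate fold enrichments in the authors' lists, from 1.999 to 4.87. Fold enrichment is the authors' own ratio of signal to background for each peak, and the highest peak of a region is given. KN150014.1 varied the most among them, at 3.34, 3.10 and 4.53 in the 3 controls and 4.87 and 3.01 in the mutants. Where its fold was highest its peaks were shortest: 2407 and 2324 bp in control 3 and mutant 1, where the other libraries had 3384 to 4070 bp.

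**Figure D2:**
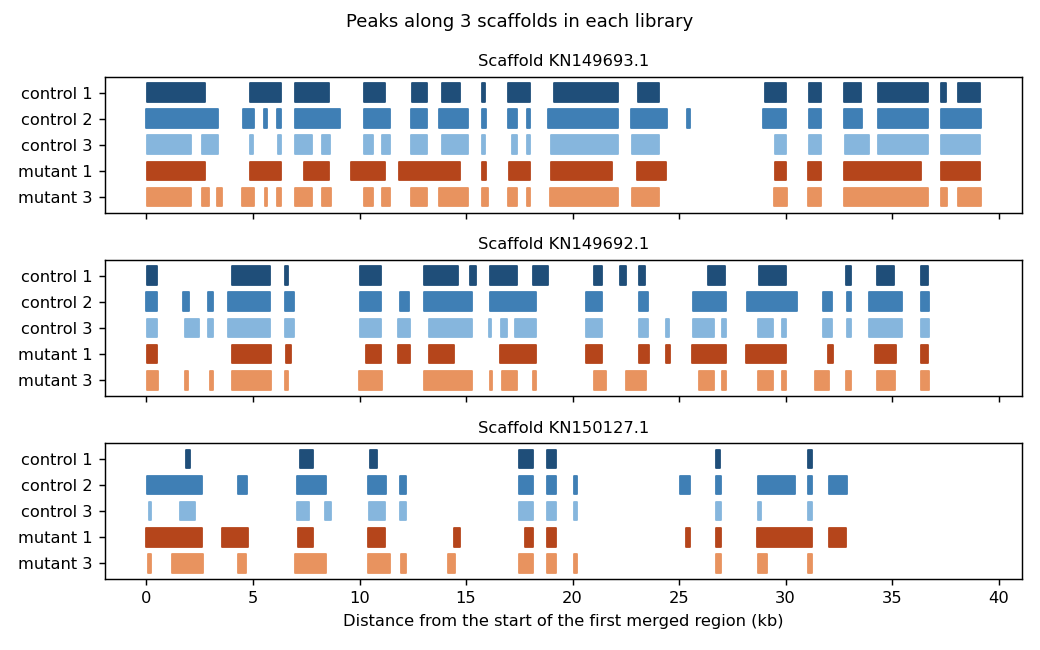
Peaks (bars) of each library along 3 scaffolds, plotted by distance from the start of the first merged region (kb). On KN149693.1 13 of 14 merged regions and on KN149692.1 12 of 18 have a peak in every library, while on KN150127.1 narrow sites recur and the wider stretches around them differ between libraries.

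Several accessible stretches began at the very start of their scaffold. On 12 of the 40 scaffolds with a peak, a region began within 300 bp of the first base, at positions from 10 to 266. Of these 12 regions 11 were common to all libraries. The median width of the 12 was 2408 bp, against 735 bp for the other 98 scaffold regions, of which 52 (53.1%) were common. Common regions were wider in general, with a median of 1575 bp over all common scaffold regions, so these widths do not compare like with like. Among the 25 chromosomes, 1 had a region that close to its first base. Regions made up at most 0.262% of their span on any chromosome, and at least 2.30% on every scaffold. The counts of scaffolds and chromosomes thus do not compare like with like. The limit of 300 bp was chosen after the positions were seen, and scaffold ends were not examined because scaffold lengths were not used here.

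The median scaffold peak was wider than the median peak of the pooled chromosomes in every library. The median scaffold peak measured 759, 694 and 540 bp in controls 1, 2 and 3 and 908 and 566 bp in mutants 1 and 3. On chromosomes 1 to 25 of the same libraries the medians were 574, 391, 329, 706.5 and 388.5 bp. Scaffold peaks were thus wider by 215.5 ± 50.7 bp on average (SD, n = 5), and by 177 to 303 bp in single libraries. The exact paired permutation p (two-sided) was 0.063, the smallest that 5 libraries can give. Median widths of single chromosomes were not compared. In control 1, 82 scaffold peaks covered 85.9 kb, 10 peaks of chromosome 23 covered 16.2 kb and 6 of chromosome 1 covered 2.24 kb. Mean width there was thus above that of the scaffolds on chromosome 23 and below it on chromosome 1. It was also slightly above on chromosomes 7, 11, 15 and 16, for example with 20.6 kb in 19 peaks on chromosome 11. The widths of mutants and controls overlapped on the scaffolds, with a difference of 72.4 bp (exact permutation p = 0.6) that turned to -98.8 bp without mutant 1 and to -51.5 bp without both libraries numbered 1.

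Fold enrichment on scaffolds was slightly above that of chromosome peaks. The median scaffold peak stood at percentile 51.3, 56.3 and 55.6 of its own list in the controls and at 50.3 and 57.9 in the mutants. Chromosome peaks stood at percentiles of 49.3 to 50.1. The difference was positive in 5 of 5 libraries and averaged 4.64 percentile points (SD 3.65, n = 5), with an exact paired permutation p of 0.063. It was small in the libraries numbered 1, and it fell to 0.994 when q was limited to 1e-05 and turned to -0.718 in lists of equal length. Among the strongest regions of the series the scaffolds were about as frequent as among all common regions: of the 100 common regions with the highest fold percentile, 11 lay on scaffolds, which held 10.5% of the 598 common regions. Among the 20 widest regions outside the mitochondrial genome 2 lay on scaffolds.

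**Figure D3:**
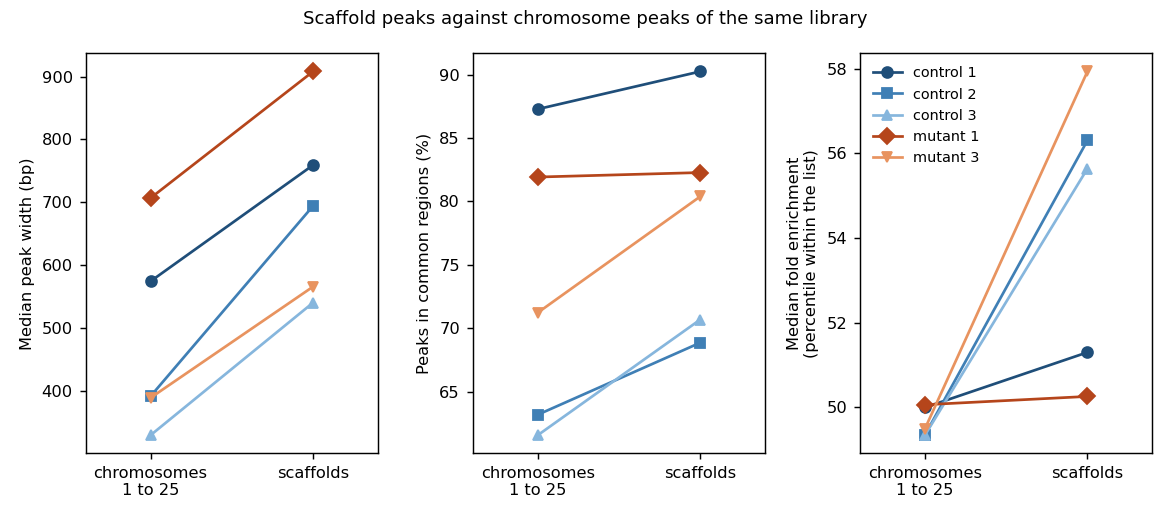
Median peak width (bp), share of peaks in regions common to all libraries (%), and median fold enrichment as a percentile within the list, on chromosomes 1 to 25 and on scaffolds, with 1 line per library. Every line rises towards the scaffolds, least for mutant 1 in the middle and right panels, and the axes do not start at 0.

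Merged at 1 bp, most scaffold regions were found in every library. Of the 110 regions, 63 (57.3%) were common to all 5 libraries, 8 had a peak in 4 libraries, 13 in 3, 12 in 2 and 14 (12.7%) in 1. On chromosomes 1 to 25, pooled, 534 of 1215 regions (44.0%) were common and 22.6% had a peak in 1 library. Single chromosomes ranged from 8 common regions of 37 on chromosome 25 to 18 of 23 on chromosome 11. The share on chromosome 11, and that on chromosome 24 (50 of 76), lay above that of the scaffolds. The common scaffold regions made up 85.9% of the 131 kb of merged scaffold regions. They had a median width of 1575 bp, against 166 bp for the regions of a single library. When peaks were merged only at 50% reciprocal overlap, 49 of 170 scaffold regions were common, so most were not. The count of common chromosome regions under that rule is not given here. Counted by peaks, the share in common regions was then 12.7 percentage points higher on scaffolds than on chromosomes, averaged over the libraries.

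**Figure D4:**
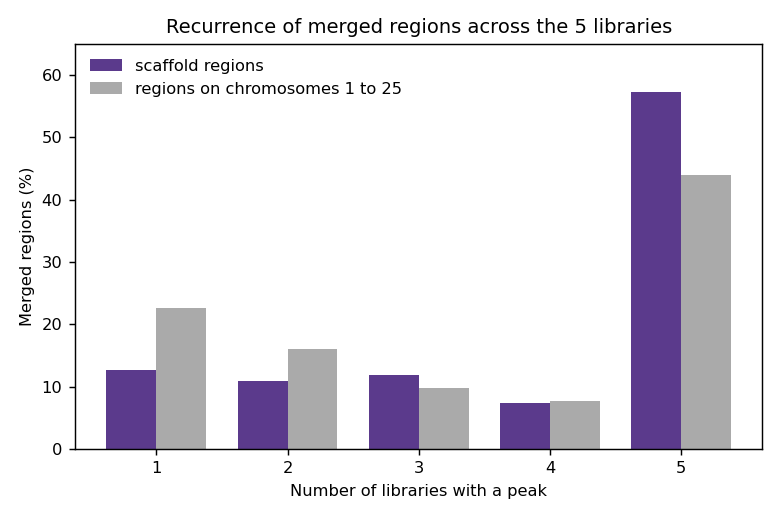
Share of merged regions (%) by the number of libraries with a peak, for the 110 scaffold regions and the 1215 regions on chromosomes 1 to 25. Regions in all 5 libraries make up 57.3% on scaffolds and 44.0% on chromosomes.

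Pooled over regions, recurrence was higher on the 2 scaffolds with the most accessible length than on the rest. On KN149693.1 and KN149692.1 together, 25 of 32 regions (78.1%) were common, and on the other 38 scaffolds 38 of 78 (48.7%). The 2 scaffolds were picked by covered length in these same libraries, and recurrence at 1 bp is not independent of that choice. Counted by peaks, 90.2%, 68.9% and 70.7% of the scaffold peaks of controls 1, 2 and 3 lay in common regions, and 82.3% and 80.4% of those of mutants 1 and 3. This share was above that of chromosome peaks in 5 of 5 libraries, by 5.46 percentage points on average (SD 3.85, n = 5; exact paired permutation p = 0.063). Without these 2 scaffolds the difference was -0.768 percentage points. The genotypes overlapped in the share on scaffolds (76.6 ± 11.9%, SD, n = 3, against 81.3 ± 1.33%, SD, n = 2; exact permutation p = 0.6), and in lists of equal length the difference between them turned from 4.73 to -0.272 percentage points. It was 12.2 without control 1, 0.869 without control 2 and 1.78 without control 3.

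On average, libraries shared scaffold sequence as closely across genotypes as within them. The Jaccard index, the length covered in both libraries of a pair divided by the length covered in either, had a mean of 0.730 over the 6 pairs across genotypes (0.679 to 0.764) and of 0.713 over the 4 pairs within them (0.671 to 0.768). Only 1 of the 4 pairs within genotypes was of mutants, and it had the lowest index of all 10 pairs (0.671). Pairs share libraries and were not tested. In 9 of 10 pairs the index was higher on scaffolds than on chromosomes, the exception being control 1 with mutant 1 (0.687 and 0.688). The gap was widest for control 2 with mutant 1, at 0.735 on scaffolds and 0.613 on chromosomes.

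The strongest scaffold region was found in all libraries at KN150031.1, 11268 to 12186. Its fold enrichment was 11.1, 11.3 and 11.4 in the controls, and 10.1 and 9.28 in the mutants, and it ranked between 12th and 18th in each list. Folds belong to their own list, and ranks among the 598 common regions, which are the same regions in every library, overlapped between the genotypes here (12, 16 and 13 in the controls, 13 and 17 in the mutants). The peaks on it covered 855, 817 and 425 bp in the controls and 908 and 896 bp in the mutants. Both mutants were above all controls in length, although control 3 alone was far below the other 4 libraries.

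Several of the other leading common regions had folds within a narrow range over the libraries, which are given side by side without a test. At KN150160.1, 16397 to 17707, the fold was 6.98, 7.11 and 7.04 in the controls and 6.68 and 6.88 in the mutants. KN150187.1 at 17444 to 19152 had 5.89, 5.95 and 6.12 in the controls and 5.89 and 5.87 in the mutants. These 2 regions differed between libraries by less than 0.5. KN150570.1 at 39655 to 41426 reached 8.55 in mutant 1 and 6.61 to 7.38 in the other libraries. At KN150271.1, 50 to 2204, and KN149861.1, 10 to 1870, which both begin near the first base of their scaffold, the folds ranged from 5.40 to 6.07 and from 4.84 to 5.38.

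**Figure D5:**
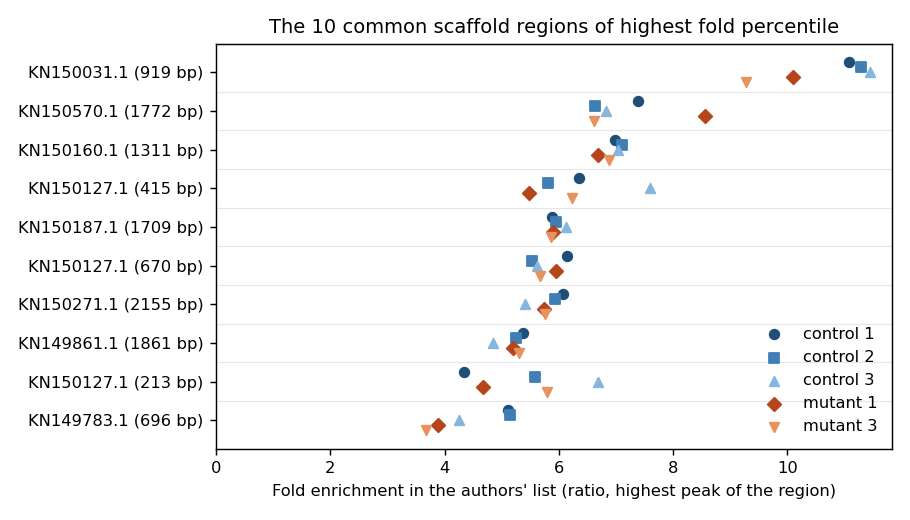
Fold enrichment in the authors' lists (ratio, highest peak of the region) of the 10 common scaffold regions with the highest mean fold percentile, labelled by scaffold and merged width, with 1 point per library. KN150031.1 lies between 9.28 and 11.4, and the other regions lie between 3.67 and 8.55.

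KN150127.1 combined narrow strong sites with wide weak stretches, and most of the variation between libraries lay in the latter. Its peaks covered 2.57, 10.2 and 4.47 kb in controls 1, 2 and 3 and 10.1 and 7.06 kb in mutants 1 and 3. Control 2 and mutant 1 were highest and control 1 was lowest, so the genotypes overlapped. Strong sites at 17534 to 18203, 18868 to 19282 and 26794 to 27006 were present in all libraries, with folds of 5.53 to 6.13, 5.48 to 7.59 and 4.33 to 6.68. Their merged widths were 670, 415 and 213 bp. The site at 17534 was covered over 660, 663 and 670 bp in the controls and 389 and 649 bp in mutants 1 and 3. The site at 18868 was covered over 406, 409 and 415 bp in the controls and 403 and 412 bp in the mutants. By contrast, the region from 50 to 2709 was covered over 189, 2576 and 795 bp in the controls and 2597 and 1649 bp in the mutants, at folds of 1.82 to 3.01. The region from 28714 to 31297 held both kinds. A narrow peak near its end, with folds of 4.56, 7.24, 6.83 and 5.96 in controls 1, 2 and 3 and mutant 3, was the only one in control 1 (188 bp). In mutant 1 a single peak of 2584 bp at a fold of 2.66 spanned the region.

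A further narrow site on this scaffold, at 20120 to 20256, had a peak in control 2, control 3 and mutant 3 and none in the libraries numbered 1. Its −log10 q, the authors' measure of confidence, was 65.2, 77.7 and 57.9 in those 3 libraries. Its peaks were 126, 137 and 127 bp wide, and the lists of control 1 and mutant 1 hold no peak shorter than 139 and 162 bp. Of the 39 scaffold regions without a peak in control 1, 7 consisted only of peaks shorter than any in its list. For mutant 1 these were 11 of 33, for control 2 they were 2 of 14, and control 3 and mutant 3 had none.

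Only 1 scaffold region was found in both mutants and in no control, and 1 in all 3 controls and in no mutant. Each is 0.909% of the 110 scaffold regions, where 0.528% of all 1326 regions were in the mutants alone and 0.226% in the controls alone. Counts of 1 carry little weight beside these backgrounds. Leaving out a library loosens the definition, and the count for the mutants was then 3 without control 2 or mutant 1 and 2 without mutant 3. It stayed at 1 without control 1 or control 3. That for the controls was 7 without control 1, 2 without control 2 or mutant 1, and 5 without mutant 3. It stayed at 1 without control 3. The share over all regions is not given for these settings. The mutant region lay on KN150127.1 at 14199 to 14745, covered over 267 bp in mutant 1 and 340 bp in mutant 3. The peaks of the mutants shared only a small part of it. From the start of the first merged region, they ran from 14.429 to 14.696 kb in mutant 1. In mutant 3 they ran from 14.149 to 14.489 kb. The region was among the weakest, at rank 757 of 766 in the list of mutant 1 and 1172 of 1191 in that of mutant 3, and had a q above 0.05 in both. It was not found when q was limited to 1e-05 or lists to equal length, nor with 50% reciprocal overlap.

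The control region lay on KN150270.1 at 21042 to 21240, a scaffold on which accessible length was lower in the mutants. It was covered over 170, 150 and 141 bp in controls 1, 2 and 3. The shortest peak in the list of mutant 1 was 162 bp, and when peaks below that width were left out of every list, a choice made after seeing the data, no scaffold region was in the controls alone (a count of 0). At the neighbouring region, 18722 to 19499, peaks covered 761, 752 and 773 bp in the controls and 772 bp in mutant 1, but 102 bp in mutant 3. At 17590 to 17983 they covered 343, 394 and 357 bp in the controls and 352 and 176 bp in mutants 1 and 3. Mutant 3 was thus below all other libraries at both neighbours, while mutant 1 lay within the controls there. Over the whole scaffold the covered length was 1.27, 1.30 and 1.27 kb in the controls and 1.12 and 0.278 kb in the mutants.

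Mutants and controls were fully apart in the share of a library's covered length on 4 of the 40 scaffolds. It was lower in both mutants on 3 scaffolds (7.50%, where 6.15% of all 65 sequences were lower) and higher on 1 (2.50%, where 4.62% were higher). The 65 sequences include these 40 scaffolds, so they are not a separate background, and whether scaffolds differ from chromosomes here was not tested. Among the chromosomes, chromosome 17 was lower in both mutants, and chromosomes 10 and 12 were higher. All 4 scaffolds were among the 23 with a peak in all libraries, of which 3 were thus lower and 1 higher. A share can be below all controls only where every control has a peak. All 25 chromosomes had peaks in every library, but only 23 of the 40 scaffolds did. The 7.50% and 6.15% of lower sequences thus do not compare like with like, and no background for the 23 scaffolds is given here. On KN149692.1 the share was 1.63%, 1.98% and 1.83% in the controls and 1.58% and 1.61% in the mutants. Control 1 lay close to the mutants there, and its covered length of 11.7 kb was below both of theirs (13.1 and 12.4 kb). KN150342.1 had 1.01%, 0.908% and 0.947% in the controls and 0.775% and 0.899% in the mutants. The third, KN150270.1, held 0.177%, 0.151% and 0.158% in the controls and 0.135% and 0.036% in the mutants. KN150385.1, where mutant 1 had its single long peak, held 0.533%, 0.548% and 0.548% in the controls and 0.648% and 0.584% in the mutants. Each of these 4 had an exact permutation p of 0.2. The number of such scaffolds was 9 when q was limited to 1e-05 (8 lower, 1 higher) and 2 in lists of equal length. With fewer libraries it can rise by construction. It was 13 without control 1 or mutant 1, 9 without control 2 and 16 without mutant 3, and stayed at 4 without control 3. The share over all sequences is not given for any of these settings, so these counts have no background.

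In covered length per region, mutants and controls were fully apart at 14 of the 110 scaffold regions. Both mutants were above all controls at 8 (7.27%), where 7.84% of all regions were, and below all controls at 6 (5.45%), where 2.34% of all regions were. All regions include these 110. A length can be below all controls only where every control has a peak. More scaffold regions had a peak in every library (57.3%, against 45.1% of all regions), so the 2 shares of lower regions do not compare like with like. These counts rise with fewer libraries, from 14 in all to 45 without control 1, 27 without control 2 and 17 without control 3. They were 37 without mutant 1 and 47 without mutant 3. The share over all regions is not given for these settings, so these counts have no background. Of the 6 lower regions 4 were common to all libraries. One was KN149803.1 at 9673 to 10536, covered over 632, 854 and 694 bp in the controls and 257 and 492 bp in the mutants. The next 2 were the pair of regions on KN149783.1. At 39 to 734 the peaks covered 691, 675 and 668 bp in the controls and 659 and 664 bp in the mutants, and at 11094 to 11871 they covered 757, 769 and 778 bp in the controls and 735 and 716 bp in the mutants. The groups were apart here by a few bp in the first region. The fourth was the KN150127.1 site at 17534 to 18203, with 660, 663 and 670 bp in the controls and 389 and 649 bp in the mutants. The remaining 2 lacked a peak in at least 1 mutant: the control region on KN150270.1, and KN150342.1 at 65890 to 66156, with 225, 267 and 240 bp in the controls, 185 bp in mutant 1 and no peak in mutant 3.

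Of the 8 higher regions 7 were common to all libraries, and only some are given here. Some were apart by a few bp only. KN150569.1 at 239 to 769 had 489, 503 and 529 bp in the controls and 531 and 530 bp in the mutants. KN150127.1 at 26794 to 27006 had 189, 204 and 209 bp in the controls and 213 and 210 bp in the mutants. KN149693.1 at 33016 to 36965 was covered over 3140, 3185 and 3498 bp in 2 peaks in each control. In mutants 1 and 3 a single peak covered 3618 and 3939 bp. At KN150187.1, 12319 to 13654, the mutants had 1328 and 1322 bp and the controls 1286, 1257 and 738 bp, so that control 3 alone was far from the rest.

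How the common regions ranked by fold enrichment differed between the genotypes at about the rate of the whole series. Ranks were taken among the 598 common regions of each library. Both mutants ranked above all controls at 7 of the 63 common scaffold regions (11.1%), where 12.9% of all common regions did, and below all controls at 6 (9.52%), where 8.86% did. Of the 7 with a higher rank in the mutants, 5 lay on KN149693.1, which held 13 of the 63 common scaffold regions. At 23013 to 24682 on that scaffold the rank was 480, 513 and 518 in the controls and 394 and 372 in the mutants, with folds of 2.15, 1.95 and 1.85 against 2.24 and 2.35. At the others of these regions, the folds overlapped between the genotypes at 266 to 3799, 9864 to 11699 and 19121 to 22405, and did not at 7235 to 9369. The 5 regions lie on the same scaffold and are not independent.

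Both regions of KN149783.1 ranked lower in the mutants. At 39 to 734 the rank was 76, 68 and 101 in the controls and 120 and 144 in the mutants, with folds of 5.11, 5.15 and 4.24 against 3.88 and 3.67. At 11094 to 11871 the rank was 93, 73 and 94 in the controls and 115 and 162 in the mutants, with folds of 4.67, 4.91 and 4.40 against 3.93 and 3.39. The groups did not overlap in rank, fold or covered length at either region, which is a description of 5 libraries without a test. KN150270.1 at 17590 to 17983 ranked 343, 356 and 348 in the controls and 440 and 555 in the mutants.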

How the data were processed

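The 5 deposited peak lists, 1 per library, follow the broadPeak format with 9 columns and no header. They give each peak a fold enrichment (ratio), a −log10 p-value and −log10 q-value, and a score equal to 10 times the −log10 q cut to a whole number, all deposited by the authors. Peaks were therefore called by library. The tools BWA, Picard, Trimmomatic and FastQC 0.11.5 are named, with GRCz10 among the builds, per the submitters' processing notes. The peak caller and the handling of duplicates or of reads with several placements are not given in any source used here. Depth is unknown.

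Peaks on KN sequences were merged across libraries at 1 bp. Values per library were compared between genotypes by exact permutation over the 10 choices of 2 libraries, and scaffolds with chromosomes by exact sign changes within the 5 libraries. Named were the 10 scaffolds of most mean covered length, the 10 common regions of highest mean fold percentile, the 5 widest regions, and the scaffolds and regions that set the genotypes apart; regions apart in length or fold rank that are named beyond these, and KN150127.1 at 20120, were chosen after their values were seen. The members and lists were chosen with earlier results of these data known. Counting was checked on simulated lists. Alternatives limited q to 1e-05 or every list to 766 peaks, or used 50% reciprocal overlap, merging within 500 bp, leaving out libraries, and the replicate block. Python 3.11.15, numpy 2.4.6, pandas 2.3.3, scipy 1.17.1 and matplotlib 3.10.9 were used.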

Additional observations from a re-analysis of the deposited data

How the results depend on the processing

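No alternative could bring an exact permutation p of the genotypes to 0.05, so only direction and size are compared. Counts under the alternatives are given without a background over all sequences or regions. A q of at most 1e-05 turned the difference in the share of peaks on scaffolds (0.358 percentage points, mutants minus controls) to -1.04 and widened that in the share of length from -0.22 to -1.42 (-0.906 in lists of equal length), with 0 regions in the mutants alone and 9 scaffolds apart. Lists of equal length gave -0.457 for that share, -0.272 for the share of scaffold peaks in common regions and -0.718 for the fold percentile against chromosomes, with 0 regions in either genotype alone and 2 scaffolds apart. Reciprocal overlap of 50% gave 170 scaffold regions, of which 49 were common, with 0 regions in the mutants alone and 2 in the controls alone. With each library left out in turn, the differences ranged from -22.3 to 0.667 in scaffold peaks and from -7.64 to 5.56 kb in length; those in the share of peaks lay between -0.516 and 1.23 and in that of length between -0.437 and 0.138 percentage points, that in the share of scaffold peaks in common regions between 0.869 and 12.2, and that in median width between -98.8 and 244 bp. These settings gave 1 to 3 mutant-only and 1 to 7 control-only regions, 4 to 16 scaffolds and 17 to 47 regions apart. Fewer libraries can raise these counts by construction. The replicate block, numbers 1 and 3 as pairs without control 2, gave 5.56 kb and 0.138 percentage points for covered length and its share, 3 and 2 regions in the mutants and controls alone, and 11 scaffolds and 45 regions apart. Whether the numbers pair the samples is not stated, and with 2 pairs the deviations from the group means (r = -0.400 for number 1 and 0.0955 for number 3 over 110 regions) decide nothing. Other alternatives were chosen after seeing the data. Without both libraries numbered 1, the median width difference was -51.5 bp, with 4 and 11 regions in the mutants and controls alone, 27 scaffolds and 70 regions apart. With peaks of at least 162 bp, the widest of the 5 minimum widths, 0 regions were in the controls alone. Without KN149693.1 and KN149692.1, 38 regions were common and the common share against chromosomes was -0.768 percentage points. Except by construction, the cause was not tested. The width difference from chromosomes kept its direction under its 10 alternatives (194 to 259 bp).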

Other observations

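A pair of single-region scaffolds, noticed after their values were seen, had nearly the same fold enrichment in each library. KN149993.1 at 16179 to 16863 had folds of 2.56, 2.57 and 4.57 in the controls and 1.66 and 2.38 in the mutants. KN150242.1 at 18990 to 19996 had 2.45, 2.55 and 4.82 in the controls and 1.64 and 2.41 in the mutants. Control 3 was highest and mutant 1 lowest at both. Their −log10 q was 72.1 and 79.0 in control 3, against 0.449 and 0.309 in mutant 1, where neither reached a q of 0.05.

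On KN149861.1 the region at the start of the scaffold was covered over 1854 to 1860 bp in all 5 libraries, while the regions from 7780 to 14198 were covered in part of the libraries. Peaks on the whole scaffold covered 1.85, 4.20 and 2.65 kb in controls 1, 2 and 3 and 5.22 and 2.37 kb in mutants 1 and 3.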
